A study of Mus musculus with 20 samples.

Results

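The genes described here carry monocarboxylates into and out of cells and turn ketone bodies into acetyl-CoA. They were chosen by name and function and number 8 of the 33119 genes in the count table: the carriers Slc16a1, Slc16a3 and Slc16a7, the carrier chaperone Bsg, and the enzymes Bdh1, Bdh2, Oxct1 and Acat1. All 8 were among the 21724 genes that passed the filter on low counts. The RNA came from the hippocampus of 20 mice aged 16 months, with 5 males and 5 females of the hAPOE3 genotype and 5 males and 5 females of the hAPOE4 genotype. Every mouse was homozygous for a human APOE allele that replaces the mouse gene by targeted replacement, on a C57BL/6 background from a commercial breeder, and brains were perfused before dissection. All 4 groups carry a human allele in place of mouse Apoe, so each comparison is of one human allele with another or of one sex with the other, and no untreated or wild-type reference exists. The labels give no litter, extraction or sequencing batch.

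Lactate, pyruvate and the ketone bodies beta-hydroxybutyrate and acetoacetate cross membranes through proton-linked monocarboxylate transporters of the SLC16 family, which reach the cell surface together with a single-pass glycoprotein partner. In brain, beta-hydroxybutyrate that has entered a cell is oxidized to acetoacetate in mitochondria, acetoacetate is given a coenzyme A by a transferase, and a thiolase splits the product into acetyl-CoA for the citric acid cycle. This route lets neurons and glia run on fuel other than glucose, for example in suckling or fasting, and interest in it in carriers of APOE4 comes from the reduced glucose use of their brains.

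Total counts per mouse ran from 35778879 to 52520279, with group medians between 40388894 and 45217371. All 7 markers of hippocampal neurons, all 8 of neurons, all 8 of astrocytes, all 8 of oligodendrocytes and all 8 of endothelium were above 0 in every mouse. A level above 0 does not tell hippocampus from other brain tissue, so the label of the region rests on the sample records. The libraries were not equal in composition. The summed level of 10 choroid plexus markers such as Ttr ran from 81.2 to 3319 CPM (counts scaled to a common library size) in hAPOE3 males, 118 to 2911 in hAPOE4 males, 78.5 to 3898 in hAPOE3 females and 101 to 6582 in hAPOE4 females. Of 10 oocyte markers 5 were tested. The sum of all 10 was 1.59 CPM in the lowest hAPOE4 male and 69.2 to 137 CPM in the rest of that group, against at most 3.75 in the other groups. Up to 4 of the 10 markers were at 0 in a mouse. The sum of 25 nuclear genes of oxidative phosphorylation ran from 2219 to 4228 CPM in the hAPOE3 groups and from 2418 to 3038 CPM in the hAPOE4 groups, and 4 male libraries were lowest in the hippocampal neuron score (hAPOE3 males replicates 4 and 5, hAPOE4 males replicates 3 and 5, with summed markers of 507 to 594 CPM). In bulk tissue fewer cells of a type and less RNA per cell cannot be told apart. Reads of the deleted mouse Apoe gene gave 37.4 to 98.9 CPM, and the count table has no separate human APOE feature, so the genotype labels were not checked by it.

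None of the 8 genes passed the test in any comparison. With edgeR's quasi-likelihood test and Benjamini-Hochberg adjustment over all genes tested, 0 of 8 passed an adjusted p of 0.05 between hAPOE4 and hAPOE3 males, where 0.621% of all genes passed, and 0 of 8 between hAPOE4 and hAPOE3 females, where 0.667% passed. Between the sexes 0 of 8 passed in hAPOE3 mice (0.0414% of all genes) and 0 of 8 in hAPOE4 mice (0.437%). The interaction of sex and APOE gave 0 of 8 (0.184% of all genes), the genotypes averaged over both sexes 0 of 8 (2.45%) and the sexes averaged over both genotypes 0 of 8 (0.129%). At an unadjusted p under 0.05 the count was also 0 of 8 in each of these 7 comparisons, beside 9.06%, 10.1%, 5.22%, 5.8%, 2.54%, 17.9% and 10% of all genes in the same order. DESeq2's Wald test gave 0 of 8 as well, adjusted or not, in all 7. A count of 0 among 8 genes is near this background and is no result about the 8, so each gene is given below with the interval of its fold change.

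**Figure D1:**
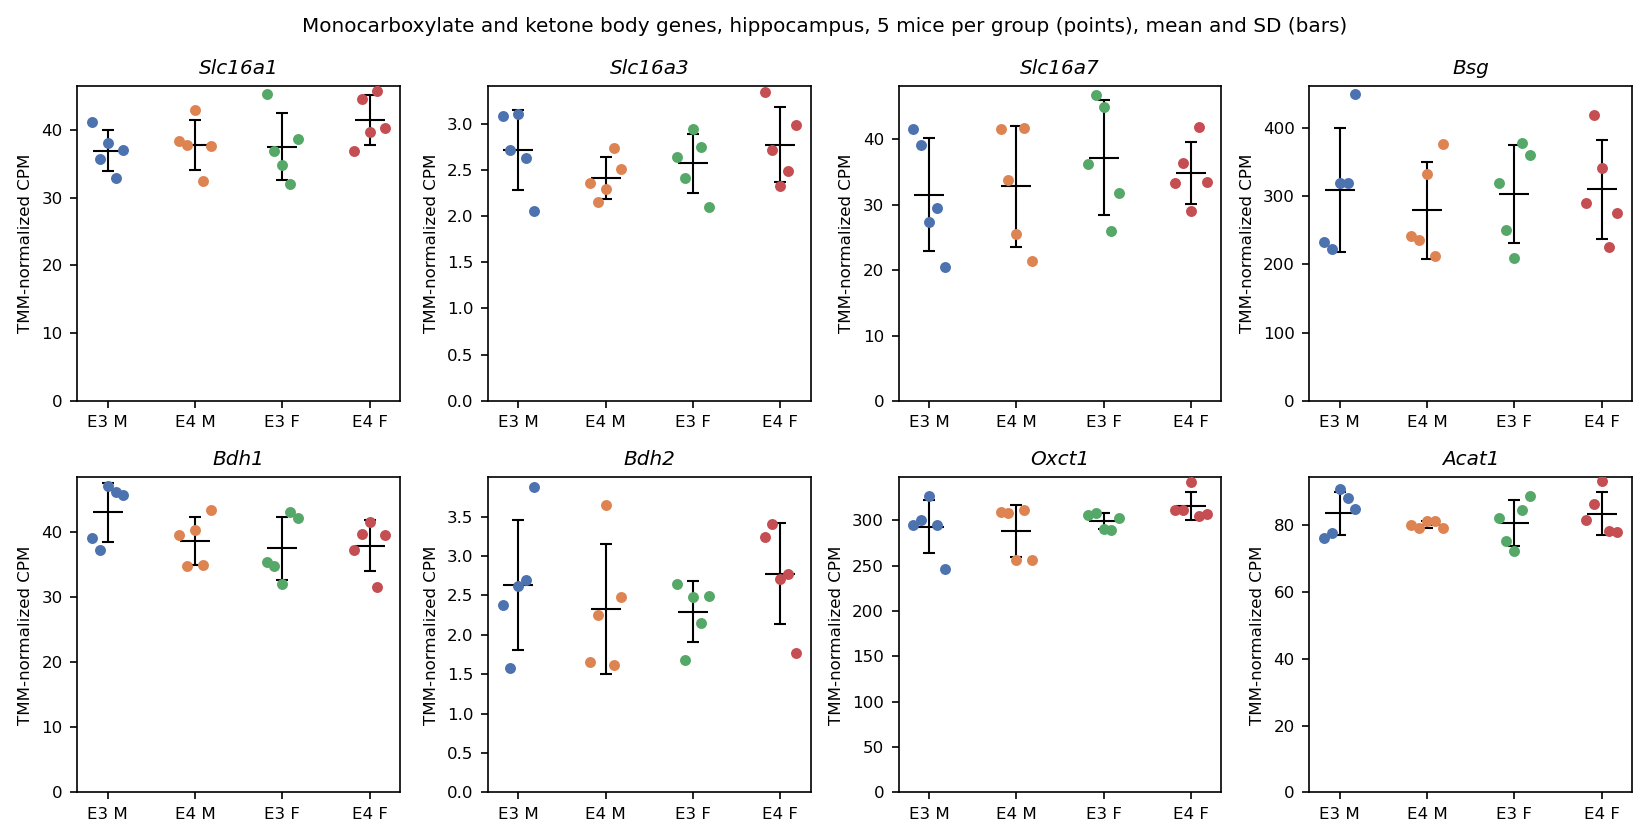
Level of each of the 8 genes in each mouse, in CPM on TMM-normalized library sizes, for hAPOE3 (E3) and hAPOE4 (E4) males (M) and females (F). Points are mice, the horizontal mark is the mean and the bar 1 SD, and in every panel the 4 groups overlap.

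Slc16a1 encodes MCT1, the carrier of lactate and ketone bodies in brain endothelium, astrocytes and oligodendrocytes. It lies on chromosome 3 (GRCm38, chr3:104638668-104658462, plus strand) and has 1 annotated transcript of 4426 bases. In replicates 1 to 5 its level was 41.2, 35.8, 38.0, 32.9 and 37.0 CPM in hAPOE3 males and 38.3, 37.7, 43.0, 32.4 and 37.6 CPM in hAPOE4 males. In hAPOE3 females it was 45.3, 37.0, 34.9, 31.99 and 38.7 CPM, and in hAPOE4 females 37.0, 44.6, 39.7, 45.8 and 40.3 CPM. The lowest hAPOE4 female was at 36.967 CPM, and each of the other groups held at least 1 mouse below that, yet the ranges overlapped throughout. The hAPOE4 females were 1.10 times the hAPOE3 females (95% confidence interval 0.960 to 1.27, adjusted p = 0.682, edgeR) and 1.10 times the hAPOE4 males (0.954 to 1.26, adjusted p = 1.00). In males the genotypes stood at a ratio of 1.02 (0.890 to 1.17), so a change of over 1.3-fold in either direction lies outside all of these intervals.

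Slc16a7 encodes MCT2, the high-affinity carrier that is mainly neuronal in brain. It lies on the minus strand of chromosome 10 (chr10:125219270-125389465), and an antisense gene, Gm45604, overlaps its bounds. Whether exons of the pair overlap was not checked. The strand setting of the libraries is not given in the sources used here, so whether reads of the pair mix is not known. Its level was 41.5, 39.1, 27.3, 29.5 and 20.4 CPM in the 5 hAPOE3 males and 41.5, 33.9, 25.6, 41.7 and 21.4 CPM in the 5 hAPOE4 males. The hAPOE3 females gave 36.2, 46.8, 44.97, 26.0 and 31.8 CPM and the hAPOE4 females 33.3, 36.4, 29.1, 41.8 and 33.5 CPM. The males of each genotype spread widely, the lowest at 20.4 and 21.4 CPM and the highest at 41.5 and 41.7 CPM, and the hAPOE4 females less, from 29.1 to 41.8 CPM. The coefficient of variation over the 20 mice was 22.6%, against 10.5% for Slc16a1. Genotype ratios were 1.04 in males (0.774 to 1.40) and 0.937 in females (0.697 to 1.26), and females were at 1.178 times the males in hAPOE3 mice (0.876 to 1.58) and at 1.06 times in hAPOE4 mice (0.790 to 1.43). With the choroid plexus score as a covariate, the log2 difference of females and males over both genotypes was 0.38 (unadjusted p = 0.0145, adjusted p = 0.174, edgeR) in place of 0.16. It was -0.05 without the 4 male libraries low in hippocampal neuron markers.

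Slc16a3 encodes MCT4, the low-affinity carrier that exports lactate from glycolytic cells. On chromosome 11 (chr11:120948480-120960868, plus strand), it was the lowest of the carriers, with a count of 86 in its lowest library. In hAPOE3 males its level was 3.08, 2.71, 3.10, 2.63 and 2.05 CPM and in hAPOE4 males 2.36, 2.15, 2.29, 2.74 and 2.51 CPM. In hAPOE3 females it was 2.64, 2.41, 2.94, 2.74 and 2.10 CPM, and in hAPOE4 females 3.34, 2.72, 2.32, 2.48 and 2.99 CPM. The 2 highest hAPOE3 males stood above all hAPOE4 males, but the other 3 lay within or below the hAPOE4 range. The ratio of hAPOE4 to hAPOE3 was 0.890 in males (0.725 to 1.09) and 1.08 in females (0.880 to 1.32), and the interaction of sex and APOE was 0.28 on the log2 scale (SE 0.20, adjusted p = 1.00).

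Bsg encodes basigin, the chaperone that takes MCT1 and MCT4 to the plasma membrane, and is found on endothelium, neurons and glia. It lies on chromosome 10 (chr10:79704491-79711969, plus strand) and was the most abundant of the 8 per length. Its level was 233, 223, 319, 319 and 450 CPM in hAPOE3 males and 241, 235, 332, 212 and 376 CPM in hAPOE4 males. In females the hAPOE3 mice gave 319, 251, 209, 378 and 360 CPM and the hAPOE4 mice 290, 418, 341, 226 and 275 CPM. Each group held at least 1 mouse at or under 251 CPM and at least 1 at or above 376 CPM. The genotype ratio was 0.905 in males (0.666 to 1.23) and 1.02 in females (0.751 to 1.39), and with a coefficient of variation of 23.9% the intervals leave changes of up to about 1.5-fold in either direction unresolved. Without the 4 male libraries low in hippocampal neuron markers, hAPOE4 females stood 0.45 above hAPOE4 males on the log2 scale (unadjusted p = 0.0393, adjusted p = 0.569, edgeR), against 0.15 with them. With the choroid plexus score as a covariate the sign turned, and that difference was -0.11.

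Oxct1 encodes the mitochondrial succinyl-CoA:3-ketoacid CoA transferase, the step that commits acetoacetate to oxidation and that liver lacks. It lies on chromosome 15 (chr15:4026383-4155344, plus strand), with the antisense gene Gm15632 and the opposite-strand transcript BC037032 within its bounds. The hAPOE3 males had 295, 301, 327, 295 and 247 CPM, and the hAPOE4 males 309, 308, 257, 312 and 256 CPM. The hAPOE3 females had 306, 308, 290, 290 and 303 CPM, and the hAPOE4 females 311, 312, 343, 305 and 307 CPM. The 3 lowest of the 20 mice were males, 1 hAPOE3 (replicate 5) and 2 hAPOE4 (replicates 3 and 5), and all 3 were among the libraries low in hippocampal neuron markers. The hAPOE4 females lay at or above 305 CPM, as did 1 hAPOE3 male, 3 hAPOE4 males and 2 hAPOE3 females. Ratios were 0.985 in males (0.874 to 1.11) and 1.05 in females (0.935 to 1.19) for hAPOE4 over hAPOE3, and 1.09 for hAPOE4 females over hAPOE4 males (0.971 to 1.23, unadjusted p = 0.132, adjusted p = 1.00, edgeR). Without those libraries the last difference was 0.04 on the log2 scale, against 0.13 with them.

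Acat1 encodes the mitochondrial acetoacetyl-CoA thiolase, which makes acetyl-CoA in the last step and also takes part in isoleucine breakdown. It lies on the minus strand of chromosome 9 (chr9:53580522-53610382). Its level was 76.2, 77.6, 90.9, 88.0 and 84.9 CPM in hAPOE3 males and 79.9, 79.1, 81.1, 81.3 and 79.2 CPM in hAPOE4 males. In hAPOE3 females it was 82.0, 75.1, 72.3, 84.6 and 88.8 CPM, and in hAPOE4 females 81.5, 86.2, 93.2, 78.3 and 77.8 CPM. The 5 hAPOE4 males lay between 79.1 and 81.3 CPM, inside the range of each of the other groups. Acat1 was the steadiest of the 8, with a coefficient of variation of 6.67% over all mice, and its intervals were the narrowest: hAPOE4 over hAPOE3 was 0.959 in males (0.863 to 1.07), 1.04 in females (0.931 to 1.15) and 0.997 over both sexes (0.924 to 1.07).

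Bdh1 encodes the mitochondrial D-beta-hydroxybutyrate dehydrogenase, the first step of beta-hydroxybutyrate use. It lies on chromosome 16 (chr16:31422280-31458901, plus strand), where the antisense gene Gm15743 overlaps it. The hAPOE3 males had 39.1, 37.2, 47.1, 46.1 and 45.6 CPM, and the hAPOE4 males 39.5, 34.8, 40.3, 35.0 and 43.4 CPM. The hAPOE3 females had 35.4, 34.8, 31.9, 43.1 and 42.1 CPM, and the hAPOE4 females 37.3, 39.7, 41.6, 31.5 and 39.5 CPM. In hAPOE3 males 3 of 5 mice stood above every hAPOE4 mouse of either sex, while the other 2 lay in the middle of the hAPOE4 range. Those 3 hAPOE3 males had sums of 4045, 4228 and 4049 CPM over the 25 oxidative phosphorylation genes, against 2369 and 2642 CPM in the other 2, and the 2 highest hAPOE3 females had 3667 and 3814 CPM, against 2219 to 2317 CPM in the other 3. Bdh1 gave the smallest unadjusted p of the 8 genes in any comparison, 0.0652 between hAPOE3 females and hAPOE3 males, with a ratio of 0.871 (0.752 to 1.01, adjusted p = 0.805, edgeR). The genotype ratio was 0.897 in males (0.775 to 1.04) and 1.01 in females (0.873 to 1.17). With the oxidative phosphorylation score as a covariate the difference of the sexes in hAPOE3 mice was -0.09 on the log2 scale in place of -0.20 and that of the genotypes in males -0.04 in place of -0.16, and with the choroid plexus score as a covariate the former was -0.27 (unadjusted p = 0.0134, adjusted p = 0.329, edgeR).

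Bdh2 encodes a cytosolic dehydrogenase named for the same reaction and known also for its part in making a mammalian siderophore. It lies on chromosome 3 (chr3:135281221-135304426, plus strand) and had 60 to 210 counts per library. Its level was 2.38, 1.58, 2.62, 2.69 and 3.88 CPM in hAPOE3 males and 1.65, 2.26, 3.64, 1.62 and 2.49 CPM in hAPOE4 males. In hAPOE3 females it was 2.64, 1.69, 2.48, 2.16 and 2.50 CPM, and in hAPOE4 females 3.24, 3.405, 2.71, 2.77 and 1.77 CPM. The highest male of each genotype, hAPOE3 replicate 5 and hAPOE4 replicate 3, was also the male with the highest oligodendrocyte marker sum of its genotype, 13424 and 9698 CPM, where all other mice were at or under 6537 CPM. In females, 4 of 5 hAPOE4 mice stood above all hAPOE3 mice, and the fifth lay below 4 of the 5. Even so the ratio of 1.21 had an interval of 0.854 to 1.72 (adjusted p = 0.773, edgeR), and in males the ratio was 0.885 (0.624 to 1.25). With the endothelium score as a covariate the log2 difference of the genotypes in females was -0.02 in place of 0.28. In males it was -0.71 in place of -0.18 with the oocyte score, which was high in hAPOE4 males only. Neither fit gave a call. The interaction of sex and APOE, 0.45 on the log2 scale (SE 0.34, adjusted p = 1.00), was the largest of the 8. Between hAPOE4 females and hAPOE4 males the log2 difference was 0.25, and it was 0.45 with the oligodendrocyte score as a covariate (unadjusted p = 0.0198, adjusted p = 0.464, edgeR) and 0.61 without the 4 male libraries low in hippocampal neuron markers (unadjusted p = 0.0172, adjusted p = 0.401). With the choroid plexus score as a covariate that difference was 0.0027.

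**Figure D2:**
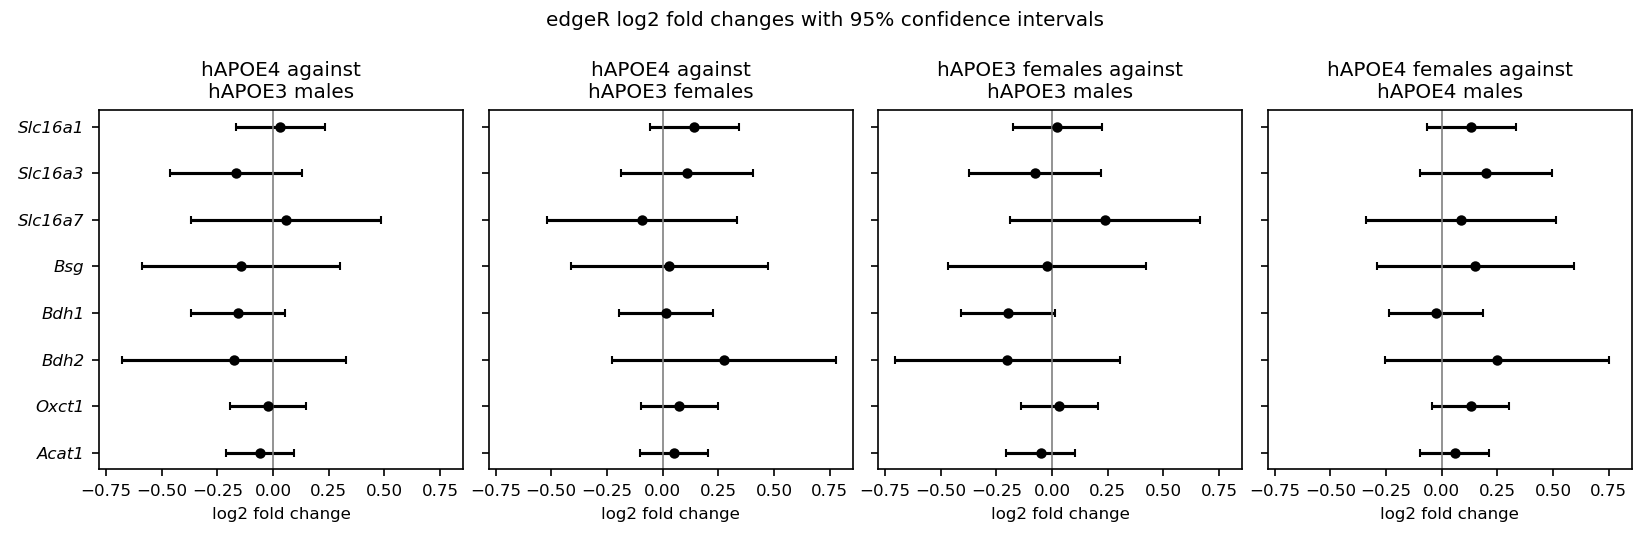
Log2 fold change (points) and 95% confidence interval (bars) of each of the 8 genes in the 4 comparisons of single groups, from edgeR. Every interval crosses 0, and they are narrowest for Acat1 and Oxct1 and widest for Bdh2, Bsg and Slc16a7.

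Read as a set, the 8 genes had a median log2 fold change of -0.10 between hAPOE4 and hAPOE3 males, with 6 of 8 below 0, beside 0.00 over all genes tested. In females the median was 0.06, with 7 of 8 above 0. Between the sexes the median was -0.04 in hAPOE3 mice, with 3 of 8 above 0, and 0.13 in hAPOE4 mice, with 7 of 8 above 0, beside -0.01 over all genes. These comparisons share groups, and members that vary together across mice tend to fall on one side together, so the counts are descriptions.

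Divided by the length of the principal transcript, in CPM per kilobase, the mean level over the 20 mice fell in the order Bsg (197), Oxct1 (84.8), Acat1 (24.1), Bdh1 (12.6), Slc16a1 (8.69), Slc16a7 (3.10), Bdh2 (2.37) and Slc16a3 (0.603). Each of the top 3 was above the next gene in 20 of 20 mice, as were Slc16a1 over Slc16a7 and Bdh2 over Slc16a3. Bdh1 was above Slc16a1 in 19 mice and Slc16a7 above Bdh2 in 16, so the last pair of neighbours is the least separated. The place of 2 genes depends on which transcript is taken. Slc16a7 has principal transcripts of 2238 to 10981 bases and would reach 15.2 CPM per kilobase with the shortest, above Slc16a1, and Bdh1 has principal transcripts of 1496 to 3122 bases and would reach 26.2, above Acat1.

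The genes varied together across mice. Over 20 mice, 76 relations of log2 CPM were computed, 28 between the genes and 48 with marker scores, and permutation p-values were adjusted over the 76. Slc16a7, the neuronal carrier, was low where Bsg, the chaperone, was high (Pearson r = -0.80, permutation p = 4e-05, adjusted p = 0.00095, Spearman rho = -0.78, permutation p = 0.00012, adjusted p = 0.00228, n = 20). Without the 2 mice farthest from the median of Slc16a7 r was -0.73, and with group means taken out it was -0.87. Slc16a7 and Bdh1 gave r = -0.78 (permutation p = 4e-05, adjusted p = 0.00095) and rho = -0.83 (permutation p = 1e-05, the smallest these permutations can give, adjusted p = 0.00076), with r = -0.75 without the 2 farthest mice and -0.79 with group means taken out. The permutations treat all mice as exchangeable. Replicates 3 to 5 of hAPOE3 males and 4 and 5 of hAPOE3 females had oxidative phosphorylation sums of 3667 CPM or more. Taking out 2 mice or group means does not remove this cluster. In hAPOE4 mice, with sums up to 3038 CPM, r of Slc16a7 and Bsg was -0.96 in males and -0.44 in females. For Slc16a7 and Bdh1 it was -0.73 and -0.86 (n = 5 each).

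Levels of Bsg, Bdh1 and Acat1 were positively correlated over the 20 mice. Bsg and Bdh1 had r = 0.74 (permutation p = 0.00027, adjusted p = 0.00342) and rho = 0.75 (permutation p = 0.00027, adjusted p = 0.0041), Bdh1 and Acat1 r = 0.70 (permutation p = 0.00065, adjusted p = 0.00494) and rho = 0.71 (permutation p = 0.00089, adjusted p = 0.0113). Bsg and Acat1 had r = 0.67 (permutation p = 0.001, adjusted p = 0.00691) and rho = 0.69 (permutation p = 0.00115, adjusted p = 0.0125). Without the 2 farthest mice these were 0.66, 0.64 and 0.64, and with group means taken out 0.85, 0.75 and 0.67. The oxidative phosphorylation cluster in hAPOE3 mice bears on these pairs too. Within hAPOE4 males the 3 pairs gave r = 0.89, -0.19 and -0.20, and within hAPOE4 females 0.76, 0.64 and 0.72 (n = 5 each). In the hAPOE4 males Acat1 kept to its narrow range, and the mice highest in Bsg, at 332 and 376 CPM, had 81.1 and 79.2 CPM of Acat1. Computed within each sex, Bsg and Acat1 gave r = 0.84 in females (permutation p = 0.00265, adjusted p = 0.0366 over 152 such relations, rho = 0.85, n = 10) and r = 0.51 in males (permutation p = 0.131, adjusted p = 0.399, rho = 0.43, n = 10), and the difference of the sexes was not tested. Bsg and Bdh2 gave r = 0.63 (permutation p = 0.00317, adjusted p = 0.0172) and rho = 0.57 (permutation p = 0.00977, adjusted p = 0.0542). Slc16a7 and Oxct1 gave r = 0.55 (permutation p = 0.0107, adjusted p = 0.0454), which rests on the 2 males farthest from the median, since r was 0.14 without them and rho 0.34 with them (permutation p = 0.146, adjusted p = 0.359). Slc16a1 and Slc16a3 were in none of the 7 pairs whose r passed an adjusted p of 0.05. Levels of 2 genes in a mouse come from 1 library, so the 2 values are not measured independently.

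**Figure D3:**
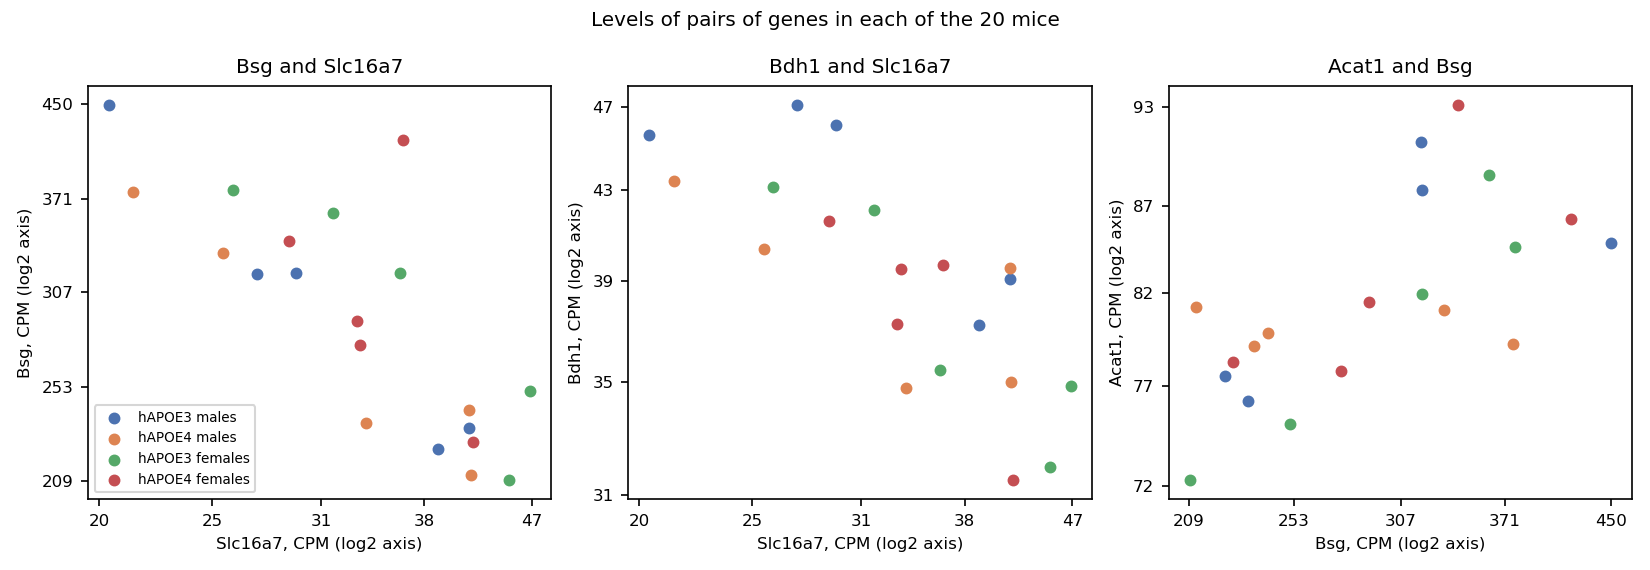
Level of Bsg against Slc16a7, of Bdh1 against Slc16a7 and of Acat1 against Bsg, in CPM on log2 axes, each point a mouse coloured by group. The first 2 panels slope down (r = -0.80 and -0.78) and the third up (r = 0.67), with the 4 groups intermixed.

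Some of the genes also varied with the scores of cell type markers, and r passed an adjusted p of 0.05 in 11 of the 48 relations. The score of 8 neuron markers fell with Bsg (r = -0.84, permutation p = 3e-05, adjusted p = 0.00095, rho = -0.80, permutation p = 6e-05, adjusted p = 0.00152) and with Bdh2 (r = -0.80, permutation p = 5e-05, adjusted p = 0.00095, rho = -0.80, permutation p = 6e-05, adjusted p = 0.00152). Without the 2 farthest mice these were -0.81 and -0.71. Bdh2 also rose with the oligodendrocyte markers (r = 0.64, permutation adjusted p = 0.00868, rho = 0.51) and the endothelium markers (r = 0.57, permutation adjusted p = 0.045, rho = 0.62). It fell with the hippocampal neuron markers (r = -0.58, permutation adjusted p = 0.0375, rho = -0.46). Bsg rose with the oligodendrocyte markers (r = 0.56, permutation adjusted p = 0.0327, rho = 0.50). Oxct1 followed the 7 hippocampal neuron markers (r = 0.79, permutation p = 0.00025, adjusted p = 0.00342, rho = 0.63, permutation p = 0.00312, adjusted p = 0.0285) and ran against the 8 oligodendrocyte markers (r = -0.76, permutation p = 0.00059, adjusted p = 0.00494, rho = -0.56, permutation p = 0.0107, adjusted p = 0.0542). Without the 2 farthest mice, both males, these were 0.60 and -0.66. The relation of Oxct1 to the hippocampal neuron markers was seen in males (r = 0.91, permutation p = 0.00028, adjusted p = 0.0137 over the 152 relations within a sex, rho = 0.92, n = 10) but was not detected in females (r = -0.03, permutation p = 0.93, adjusted p = 0.943, rho = 0.09, n = 10). With the oligodendrocyte markers r was -0.83 in males (permutation p = 0.00364, adjusted p = 0.0426) and -0.09 in females (permutation p = 0.798, adjusted p = 0.875). These values by sex were computed after those over 20 mice were seen, and the difference of the sexes was not tested. The hippocampal neuron score ran from -0.69 to 0.38 in males and from -0.21 to 0.31 in females. The oligodendrocyte score ran from -0.27 to 1.09 in males and from -0.47 to 0.09 in females. Females thus had less range in which a relation could show. Slc16a7 also rose with the hippocampal neuron markers (r = 0.72, permutation p = 0.00045, adjusted p = 0.00489, rho = 0.58, permutation p = 0.00813, adjusted p = 0.0515, and r = 0.48 without the 2 farthest mice), and fell with the oligodendrocyte markers (r = -0.70, permutation p = 0.00057, adjusted p = 0.00494, rho = -0.62, permutation p = 0.00413, adjusted p = 0.0285). With the 8 neuron markers Slc16a7 gave r = 0.65 (permutation adjusted p = 0.012, rho = 0.57). Within a sex Slc16a7 and the hippocampal neuron markers gave r = 0.82 in males (permutation p = 0.00872, adjusted p = 0.0576) and 0.27 in females (permutation p = 0.453, adjusted p = 0.676). Slc16a1, Slc16a3, Bdh1 and Acat1 passed with no list, and the highest r of Slc16a1 was 0.51 with the 8 astrocyte markers (adjusted p = 0.0753). The choroid plexus, oocyte and oxidative phosphorylation scores fell into separate clusters of mice, so no r is given for them.

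By the rule of the highest Pearson r of log2 CPM over the 20 mice, among 16095 genes, the genes most like Slc16a7 were Samd12 (r = 0.97), Arhgap20 (0.97) and Appl1 (0.96), and those most like Bsg were Ltc4s (0.95), Sil1 (0.94) and Npc2 (0.94). Bdh1 was followed by Gm16286 (0.95), Naxe (0.95) and Setd3 (0.94), and Acat1 by Tmem59 (0.92), Laptm4b (0.88) and Tmed4 (0.88). The nearest to Oxct1 were Matn2 (0.91), Pip5k1b (0.91) and Trpc4 (0.90), and to Bdh2 Apod (0.88), Tsku (0.88) and Cox6b2 (0.84). Slc16a3 and Slc16a1 had looser neighbours, Nxph3 (0.81), Gm26781 (0.79) and Tmem132a (0.75) for the former and Parp14 (0.79), Tob1 (0.79) and Snx18 (0.77) for the latter. The best of 16095 values is high by selection, and these are descriptions.

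A second readout, the use of transcripts, could be read in part from the deposited tables. The ratio of a gene's estimated count to its deposited normalized count is the factor by which that gene was scaled in that mouse, and for counts imported from transcript estimates this factor holds the mean length of the transcripts assigned to the gene. Divided by the median of the mouse, it had a median SD of 0.00287 on the log2 scale over the 4916 genes with 1 annotated transcript. Over the 15957 genes with more the median SD was 0.0713. The SD was over 0.01 in 1203 of the genes with 1 annotated transcript (24.5%) and in 86.5% of those with more. The factor thus also varied in genes with 1 annotated transcript, and an SD over 0.01 alone does not show a change in transcript use. Slc16a1, with 1 transcript, was at 1.00 in all mice. Bsg, with 6, was between 0.994 and 1.005. For Acat1 and Bdh1 the factor differed between the genotypes.

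For Acat1 the relative factor was 0.976, 0.972, 1.08, 0.9103 and 0.831 in hAPOE3 males and 1.12, 0.973, 1.12, 1.11 and 0.9753 in hAPOE4 males. In hAPOE3 females it was 0.992, 0.907, 0.952, 0.869 and 0.812, and in hAPOE4 females 1.14, 1.14, 1.17, 0.999 and 1.05. The lowest hAPOE4 female, at 0.999, lay close to the highest hAPOE3 female, at 0.992, and the males of the 2 genotypes overlapped. Over both sexes the log2 factor was 0.22 higher in hAPOE4 mice (SE 0.05, unadjusted p = 0.000407, adjusted p = 0.0196, limma over 15301 genes), where 5.65% of all genes passed an adjusted p of 0.05, and 2 of the 6 members tested did, Acat1 and Bdh1. Within a sex it did not pass, at 0.28 in females (adjusted p = 0.0793, 0.667% of all genes passing) and 0.16 in males (adjusted p = 0.327, 1.36% passing). With the oxidative phosphorylation score as a covariate the difference in females passed, at 0.28 (adjusted p = 0.0216, limma). In males the same covariate gave 0.10 (adjusted p = 0.534, limma), against 0.16 without it. Acat1 has 1 coding transcript, Acat1-201, of 3405 bases, and 2 noncoding ones, Acat1-202 with a retained intron (356 bases) and the processed transcript Acat1-203 (500 bases). Adjusted p over both sexes was 0.0134 to 0.0433 with each mouse left out in turn (limma). Without the 4 libraries low in hippocampal neuron markers the difference over both sexes was 0.18 (adjusted p = 0.107, limma).

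For Bdh1 the relative factor moved the other way. It was 0.937, 0.970, 0.959, 1.29 and 1.19 in hAPOE3 males, 0.830, 1.02, 0.827, 0.987 and 1.01 in hAPOE4 males, 0.945, 1.11, 1.06, 1.19 and 1.37 in hAPOE3 females and 0.894, 0.915, 0.854, 0.973 and 0.853 in hAPOE4 females. The highest values were those of 2 hAPOE3 males and 2 hAPOE3 females, all 4 with an oxidative phosphorylation sum of 3667 CPM or more. The hAPOE3 male at 0.959 had such a sum too, at 4045 CPM. The hAPOE3 males at 0.937, 0.959 and 0.970 and the hAPOE3 female at 0.945 lay inside the hAPOE4 range of their sex. Over both sexes the log2 factor was lower in hAPOE4 mice by a difference of -0.26 (SE 0.07, unadjusted p = 0.0026, adjusted p = 0.0483, limma). This call is fragile: it was lost in 15 of 20 fits that left out 1 mouse, reaching an adjusted p of 0.0918 without replicate 3 of the hAPOE4 males, and also with the oxidative phosphorylation score (-0.20, adjusted p = 0.0516) or the oligodendrocyte score (-0.25, adjusted p = 0.0647) as a covariate. Within females the difference was -0.33 (adjusted p = 0.168, limma), and it passed with the oxidative phosphorylation score as a covariate (-0.32, adjusted p = 0.0278). Within males it was -0.19 (adjusted p = 0.392, limma), and -0.08 with that covariate (adjusted p = 0.736). Without the 4 libraries low in hippocampal neuron markers the difference over both sexes was -0.18 (adjusted p = 0.247, limma). The other 4 members tested did not pass, Slc16a7 coming nearest with -0.20 (adjusted p = 0.125). In the comparisons of the sexes 0 of the 6 passed in hAPOE3 mice (0.00654% of all genes), in hAPOE4 mice (1.12%) and over both genotypes (0.0131%), and 0 of 6 passed for the interaction of sex and APOE (0% of all genes).

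**Figure D4:**
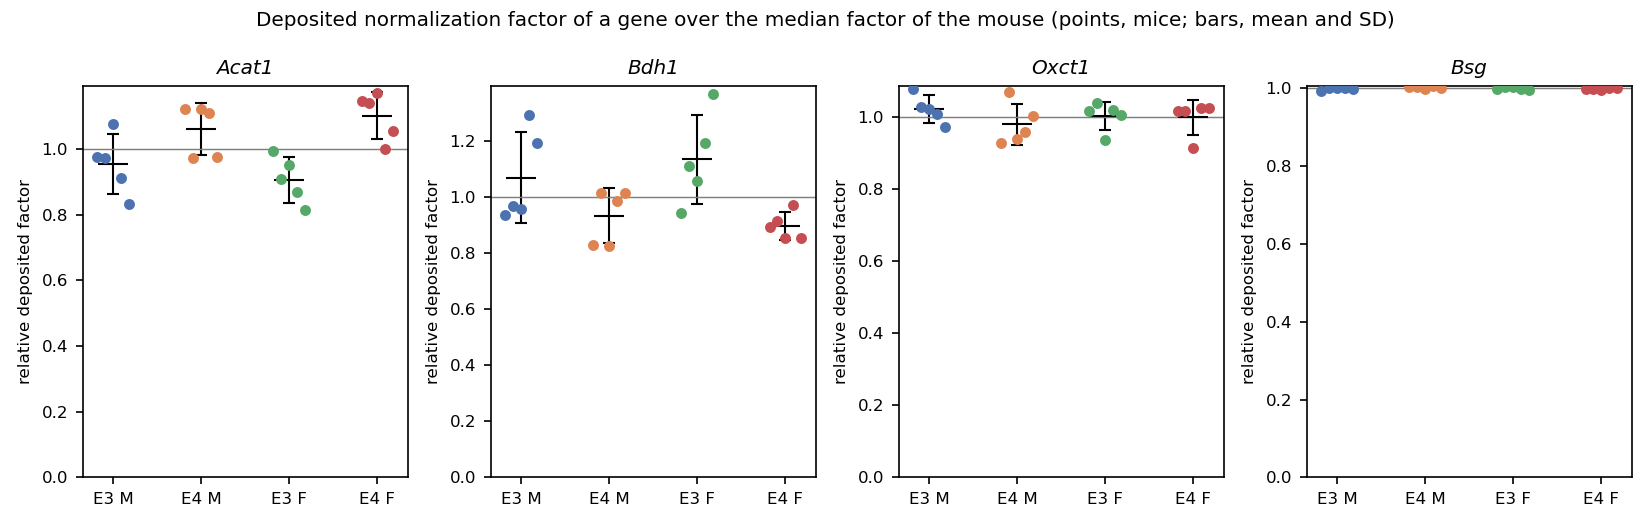
Deposited factor of Acat1, Bdh1, Oxct1 and Bsg in each mouse, relative to the median factor of that mouse (no unit), by group, with the mean and 1 SD. Acat1 lies higher in hAPOE4 mice and Bdh1 lower, with some overlap, while Oxct1 and Bsg lie near 1.

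Annotated Bdh1 transcripts begin at separate places of chromosome 16, among them Bdh1-201 (1711 bases) at position 31422280 and Bdh1-203 (3122 bases) at position 31428748. The 250 bases before each of 2 RefSeq starts are shown. These windows end slightly past the annotated starts of Bdh1-201 and Bdh1-203. Bdh1-202 (1496 bases) begins at position 31429299 and has no window here. Capitals mark CpG dinucleotides, of which the first window holds 7 and the second 9, beside a median of 6 over 32851 promoter windows of the same length, and GC content is 49.6% and 60.8%. Both are printed 5′ to 3′ on the plus strand of RefSeq's GRCm38.p6, the first from chr16:31422047-31422296 and the second from chr16:31428503-31428752.
Bdh1 upstream start: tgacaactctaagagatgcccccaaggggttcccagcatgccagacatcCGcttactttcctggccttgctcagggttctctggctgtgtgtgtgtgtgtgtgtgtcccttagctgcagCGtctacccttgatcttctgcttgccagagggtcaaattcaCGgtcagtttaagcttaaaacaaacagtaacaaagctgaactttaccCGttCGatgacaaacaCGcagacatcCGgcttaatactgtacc
Bdh1 downstream start: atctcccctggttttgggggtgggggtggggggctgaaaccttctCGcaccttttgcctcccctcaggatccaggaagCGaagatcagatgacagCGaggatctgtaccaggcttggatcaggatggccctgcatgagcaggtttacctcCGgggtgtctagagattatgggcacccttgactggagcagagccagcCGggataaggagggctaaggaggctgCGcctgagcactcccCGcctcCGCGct
Neither window holds, on either strand, the letters GGGCGG (GC box, in 32.7% of all windows), CCAAT (33.8%), TATAAA (12.4%), CACGTG (E-box, 6.02%) or ACGTG (16.6%), the last of which lies within the E-box. Which start was used in a mouse was not measured.

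The factors change what is read from the counts of these 2 genes. With the deposited factors as offsets of the edgeR fit, Acat1 was at -0.22 on the log2 scale in hAPOE4 against hAPOE3 mice over both sexes (unadjusted p = 0.00325, adjusted p = 0.0794) in place of -0.00, and Bdh1 at 0.20 (unadjusted p = 0.0336, adjusted p = 0.23) in place of -0.07. In deposited normalized counts Acat1 was 3791 ± 416 in hAPOE3 males and 3260 ± 203 in hAPOE4 males, and in females 3834 ± 556 with hAPOE3 and 3274 ± 143 with hAPOE4 (mean ± SD, n = 5 each). Bdh1 was 1749 ± 249, 1796 ± 295, 1421 ± 152 and 1837 ± 271 in the same order. Neither gene passed over all genes tested with either scale, and the direction turned with the scale for Bdh1 over both sexes and for Acat1 in females, where it was 0.05 in counts and -0.23 with the deposited factors.

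The other genes of the pathway, from 4 lists of related function, gave 0 calls in all 7 comparisons. Of 13 other monocarboxylate carriers and partners tested, 5 had an unadjusted p under 0.05 between females and males over both genotypes, all higher in females, beside 10% of all genes in either direction, with a median log2 fold change of 0.29 over the list beside -0.00 over all genes. With the choroid plexus score as a covariate the count was 2 of 13, beside 18.8% of all genes, and the median 0.01. Emb, which encodes embigin, the usual partner of MCT2, was at 21.1 to 28.4 CPM in hAPOE3 males and 22.9 to 41.2 in hAPOE4 males, and in females at 29.3 to 44.4 with hAPOE3 and 25.2 to 61.8 with hAPOE4. Its log2 difference between females and males was 0.52 (SE 0.15, unadjusted p = 0.00267, adjusted p = 0.258, edgeR). With the choroid plexus score as a covariate the difference was 0.20 (adjusted p = 0.338). Slc5a8, a sodium-coupled carrier with at most 0.405 CPM in any mouse, was 0.83 higher in hAPOE4 mice over both sexes (SE 0.25, unadjusted p = 0.00302, adjusted p = 0.0767).

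Of 11 other enzymes of ketone body and related thiolase metabolism tested, Hadha, a subunit of the mitochondrial trifunctional protein of fatty acid oxidation, stood 0.30 above hAPOE3 in the hAPOE4 females (SE 0.10, unadjusted p = 0.00809, adjusted p = 0.243, edgeR; 0.667% of all genes passed). The hAPOE3 females ran from 55 to 63.1 CPM and the hAPOE4 females from 64.4 to 86.8 CPM. In replicate order the hAPOE4 females were at 67.9, 84.6, 86.8, 64.4 and 67.9 CPM of Hadha. Their choroid plexus marker sums were 4676, 6238, 6582, 528 and 101 CPM in the same order. Hmgcll1, a lyase of HMG-CoA outside mitochondria, was at -0.14 in hAPOE4 mice over both sexes (SE 0.05, adjusted p = 0.151).

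**Figure D5:**
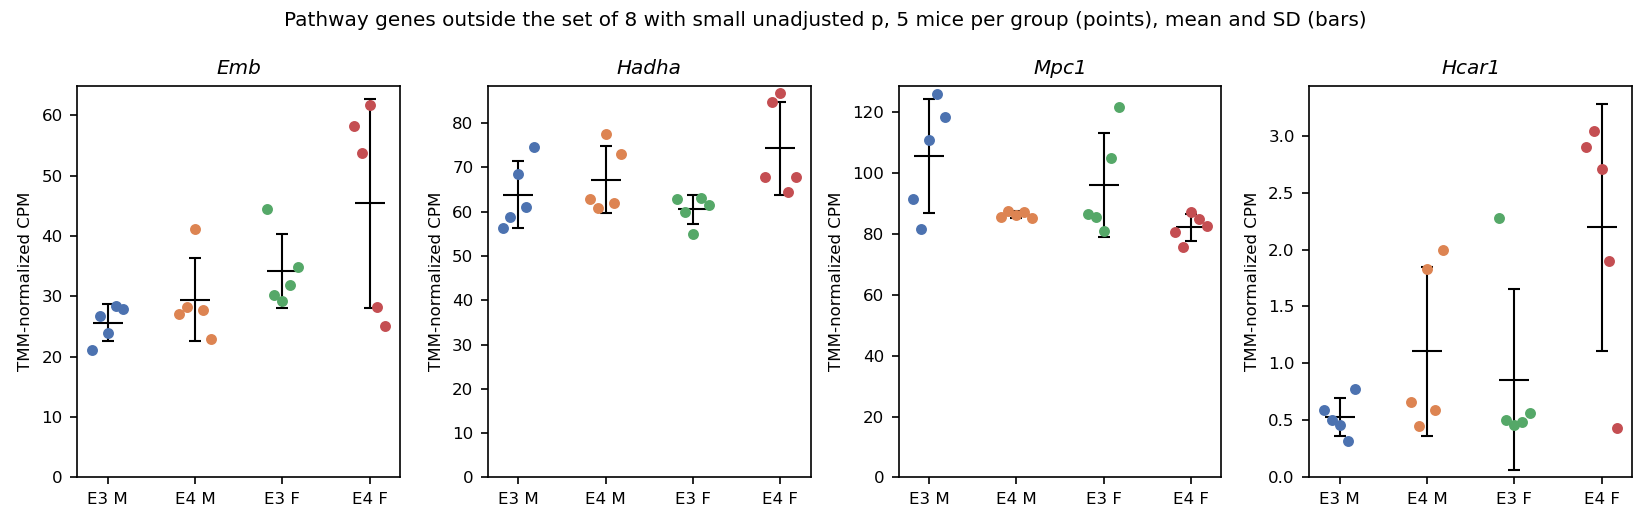
Level of Emb, Hadha, Mpc1 and Hcar1 in each mouse, in CPM, by group, with the mean and 1 SD. The highest mice of Emb, Hadha and Hcar1 are hAPOE4 females (up to 61.8, 86.8 and 3.04 CPM), and the highest of Mpc1 is an hAPOE3 male (126 CPM).

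Of 8 genes of lactate and pyruvate tested, Mpc1, a subunit of the mitochondrial pyruvate carrier, was at -0.26 in hAPOE4 against hAPOE3 mice over both sexes (SE 0.08, unadjusted p = 0.00476, adjusted p = 0.0951, edgeR). The hAPOE3 males ran from 81.6 to 126 CPM and the hAPOE4 males from 85.2 to 87.7 CPM, so the hAPOE3 range enclosed the hAPOE4 range. The hAPOE3 males at 111, 118 and 126 CPM and the hAPOE3 females at 105 and 122 CPM had oxidative phosphorylation sums of 3667 CPM or more. The other hAPOE3 mice were at 81.0 to 91.5 CPM of Mpc1, beside 75.6 to 87.7 CPM in the hAPOE4 mice. Ldhb and Ldhd, of L-lactate and D-lactate oxidation, were at -0.25 and -0.26 between females and males (adjusted p = 0.487 and 0.61). Of 6 receptors and regulators tested, Hcar1, the lactate receptor, was 1.21 higher in hAPOE4 mice over both sexes (SE 0.38, unadjusted p = 0.00446, adjusted p = 0.0924), at a level of 0.320 to 3.04 CPM, and 0.97 with the choroid plexus score as a covariate (adjusted p = 0.0611). Sirt5, a mitochondrial lysine desuccinylase, was 0.19 higher (SE 0.07, adjusted p = 0.124) and Ppara, which drives genes of ketone body synthesis in liver, 0.44 higher (SE 0.22, adjusted p = 0.296).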

How the data were processed

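Hippocampal polyA RNA of 20 mice was sequenced by the authors as 75-base paired reads, transcripts were quantified with Salmon 0.91, and tximport and DESeq2 gave the 2 tables used here. The first deposited table holds estimated counts per gene, rounded to whole numbers, and the second the authors' DESeq2-normalized counts, a signal scaled per gene and mouse. The authors quantified against an annotation of GRCm38, and GENCODE M21 of the same build gave positions and transcript lengths. All 20 columns matched a label. Counts entered edgeR 4.0.16 (R 4.3.3) with TMM library sizes and filterByExpr, with 1 mean for each of 4 groups of 5 mice, quasi-likelihood tests and Benjamini-Hochberg adjustment over all genes tested, at a threshold of 0.05. DESeq2 1.42.0 and limma 3.58.1, the latter on log2 of normalized counts with a pseudocount of 1, were alternatives. The relative factor was tested with limma for genes whose log2 factor had an SD over 0.01, a test chosen after the factors were seen, as were the oocyte and oligodendrocyte covariates, the factors as offsets and the set without 4 libraries. Correlations used 1e+05 permutations in scipy 1.17.1, two-sided, and figures were drawn with matplotlib 3.10.9. The code was tested on simulated data. The 8 genes and the lists were chosen with earlier results of these data known. All 8 were named, and of each pathway list the 3 genes with the smallest p in any comparison, since none was called, except 2 that are not reported here. Mice are the replicates, numbered in accession order. Under 0.8% of the 31-base words of each of the 8 genes occurred in transcripts of other genes. Of the 8 genes, 5 were matched in RefSeq's promoter table, and Slc16a7, Bsg and Acat1 were not.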

Additional observations from a re-analysis of the deposited data

Results flagged for a closer look

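In hAPOE4 females the level of Oxct1 in replicate 3 was 342.57 CPM, far from the nearest of the other 4 mice at 311.5 CPM, with a gap of 0.822 of the range of the group. It was 1 of 32 groups of 5 mice tested over the 8 genes, where chance gives about 1 in 20.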

How the results depend on the processing

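The count of 0 of 8 genes called held in all 7 comparisons under these alternatives: DESeq2, RLE library sizes, other filters on low counts, mitochondrial genes left out, limma on the deposited normalized counts, marker scores as covariates, the deposited factors as offsets, 4 libraries left out and each mouse left out in turn. It also held with only the groups compared in the fit, which was run for the 4 comparisons of single groups. Of 1880 fits of a single gene under an alternative, 0 crossed the threshold, and 31 changed sign by over 1 SE of a difference that was not called. These were spread over marker covariates, the deposited normalized counts or factors, and the set without the 4 male libraries low in hippocampal neuron markers. Only the relative factor of Acat1 and Bdh1 between genotypes gave calls, and those were lost or, within females, gained as stated beside them. No paired analysis was possible because the groups hold different mice and the labels give no litter or other pairing. Counts were lowest for Slc16a3 and Bdh2, down to 86 and 60 in a library.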
